A study of Mus musculus with 2 samples.

Results

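The Slc30 genes encode the ZnT transporters. The 10 mouse genes Slc30a1 to Slc30a10 were read out by symbol from the 23284 gene symbols counted in GFP-sorted cells of the embryonic pancreas. All 10 symbols were present in the count tables of both libraries. RNA-seq was performed on cells sorted for GFP after whole pancreata of e15.5 mouse embryos carrying NGN3-EGFP had been dissociated, on a background labelled mixed, C57BL6. Both libraries belong to the NGN3-EGFP group, so every sample carries the reporter, and no GFP-negative, wild-type or later-stage sample was analysed here. The labels do not say how the reporter was built, how many embryos were pooled or whether the libraries had different litters as their source, and the spread of replicates 1 and 2 may therefore be technical. Replicate 1 held 12495143 counted reads and replicate 2 held 12043734.

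ZnT proteins move zinc out of the cytosol, either across the plasma membrane or into organelles and vesicles, while the ZIP proteins of the Slc39 family move zinc the other way, into the cytosol. In the pancreatic beta cell ZnT8, the product of Slc30a8, loads zinc into insulin granules, where zinc and insulin form crystals. ZnT1 exports zinc at the cell surface, ZnT5, ZnT6 and ZnT7 serve the early secretory pathway, and ZnT2, ZnT3 and ZnT4 serve vesicles of secretory cells and neurons. The family name is a simplification, since the product of Slc30a10 is best known as a manganese exporter and that of Slc30a9 has been placed in mitochondria and the nucleus.

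The sorted cells carried the transcripts that mark the endocrine lineage. All 12 endocrine markers reached 1 CPM (reads scaled to a common library size) in both libraries. They summed to 38233 and 53737 CPM in replicates 1 and 2, with Gcg the highest at 14058.5 and 24069.5 CPM. Neurog3 (also called Ngn3), which encodes the factor the reporter is named for, had 736 CPM in replicate 1 and, in replicate 2, 551 CPM. The acinar gene Ctrb1, at 1321 and 986 CPM, was above Neurog3 in both libraries. Markers of other cells were present at lower summed levels, and the member with the highest mean of each list is named: acinar genes summed to 2545 and 1727 CPM in replicates 1 and 2 (9 of 13 detected in both, Ctrb1, with Pnlip at 0), ductal genes to 674 and 620 CPM (6 of 8, Krt7), and mesenchymal genes to 570 and 248 CPM (6 of 9, Fn1). Neural crest and neuronal genes summed to 365 and 184 CPM (5 of 8, Ret, which endocrine progenitors may also express), immune genes to 56.7 and 11.7 CPM (2 of 6, Laptm5, which leads in replicate 1 only), endothelial genes to 15.8 and 5.37 CPM (0 of 6, Cdh5, which leads in replicate 1 only) and erythroid genes to 2.41 and 3.97 CPM (1 of 5, Slc4a1, which leads in replicate 1 only, with Hba-a1 at 0). In pooled cells, fewer cells with a transcript and less transcript per cell cannot be told apart.

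The zinc-responsive factor MTF1 binds metal response elements, whose core reads TGCACNC or TGCGCNC, and Slc30a1 and the metallothionein genes are known targets. Short promoter stretches with such a core are shown here because they give the sequence context of the zinc exporter genes measured below. RefSeq promoters of GRCm38.p6, from 250 bases before to 50 bases after the start, were matched for 9 of the 10 members, with 2 promoters for Slc30a3; Slc30a8 was not matched. Each stretch below is 30 bases, 5′ to 3′ on the strand of its gene, and the capitals mark the core, which in the first 3 reads on the opposite strand and in the last on the gene's strand. The reads themselves were mapped to another build, per the submitters' processing notes, so these positions serve only the promoters.
Slc30a1 (chr1:191906727-191906756, + strand): acgggggttccGAGTGCAaagcaaagtttt
Slc30a4 (chr2:122702737-122702766, - strand): tcgcgcctcgcGGGCGCAcgcgccgcctcg
Slc30a5 (chr13:100833457-100833486, - strand): cgtgtccaccaGCGCGCAggcgcaggattg
Slc30a10 (chr1:185454764-185454793, + strand): tgacatcccaaTGCGCCCctcctcccagca

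On both strands, a core was found in 6 of the 10 member promoters, which were 60.0%, against 25.7% of 32851 promoters of the same length. Slc30a1 and Slc30a2 had 2 cores each, Slc30a4 and Slc30a10 had 3 each, and Slc30a5 and one of the Slc30a3 promoters had 1 each. The core at -43 to -37 of Slc30a1 is the one printed, and 2 of the 3 cores of Slc30a10 overlap each other on opposite strands. No core was found in the promoters of Slc30a6, Slc30a7 and Slc30a9, the last of which had the highest read count of the family. The letters are a description of these windows. Slc30a2 and Slc30a10 also held cores and had almost no reads. Whether cores go with transcript level was not tested, and the promoters compared were not matched for base composition.

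Transcripts of 7 of the 10 Slc30 genes were detected, at 1 CPM or more in both libraries, against 45.7% of all symbols. These were Slc30a1, Slc30a4, Slc30a5, Slc30a6, Slc30a7, Slc30a8 and Slc30a9, whose means lay between 13.4 and 161 CPM. Slc30a2, Slc30a3 and Slc30a10 were near or at 0. Each library taken alone also had 7 members at or above 1 CPM. Errors below are SD over n = 2 libraries, and intervals for single libraries are exact Clopper-Pearson intervals at 95% that cover counting error only.

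**Figure D1:**
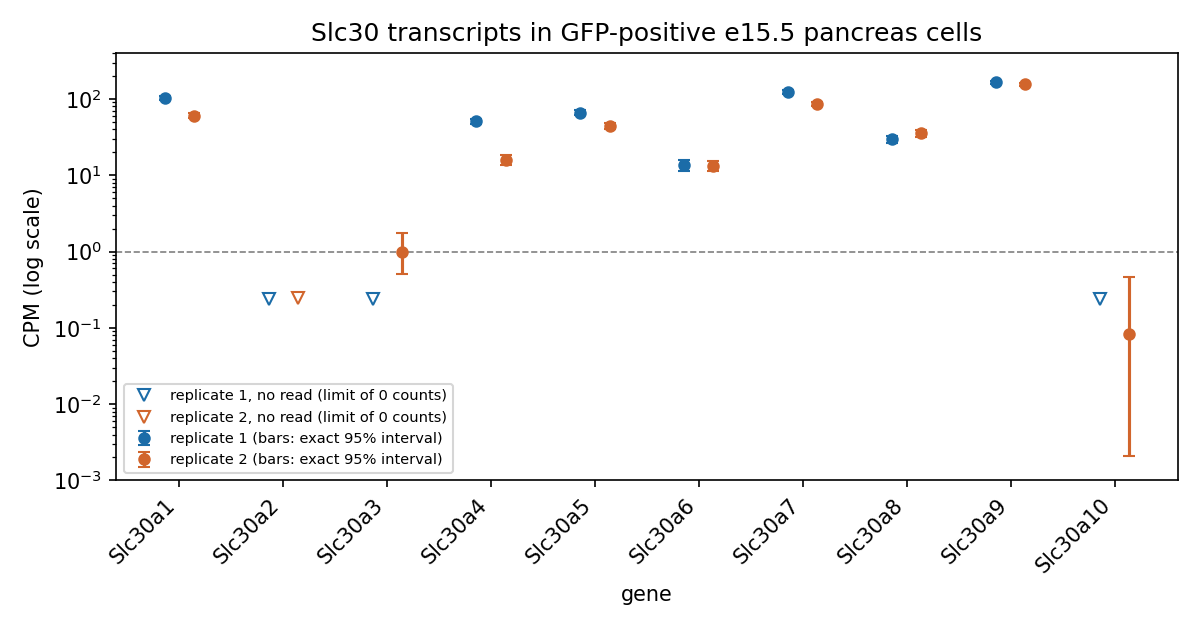
Level of each Slc30 gene in CPM on a log axis, for replicate 1 and replicate 2, with bars for the exact 95% interval of each count, open triangles at the limit that a count of 0 allows, and a dashed line at 1 CPM. The 7 detected genes sit above 10 CPM in both libraries, and Slc30a2, Slc30a3 and Slc30a10 sit below 1 CPM.

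Slc30a9 had the most reads of the family. It was at 166 CPM in replicate 1 (interval 159 to 173) and 157 CPM in replicate 2 (150 to 164), a mean of 161 ± 6.55 CPM (SD, n = 2). Its libraries were close: of 2472 tested genes with a mean within 2-fold of its own, 90.0% had libraries farther apart.

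At the plasma membrane, Slc30a1, which encodes the main zinc exporter of the cell surface, was at 103 CPM in replicate 1 (97.2 to 109) and 60.3 CPM in replicate 2 (56.0 to 64.8). The level in replicate 1 was the higher. The mean was 81.5 ± 30.0 CPM (SD, n = 2). Of the exon bases of Slc30a1, 8.9% overlap 1700034H15Rik on the opposite strand, which had 233 and 519 reads in replicates 1 and 2, and since the strand setting of the counting is not given in the sources used here, a part of either count may belong to the other gene.

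All 3 genes of the early secretory pathway were detected. Slc30a7, which encodes ZnT7 of the Golgi apparatus, was at 123 CPM (117 to 130) and 86.8 CPM (81.6 to 92.2) in replicates 1 and 2. Slc30a5, whose product pairs with ZnT6 to supply zinc to enzymes in the secretory pathway, was at 66.4 CPM (61.9 to 71.1) and 43.9 CPM (40.2 to 47.8). For both genes replicate 1 was the higher, with means of 105 ± 25.9 and 55.1 ± 15.9 CPM (SD, n = 2). Slc30a6, which encodes the partner of ZnT5 that is itself thought not to carry zinc, was at 13.4 CPM (11.5 to 15.6) and 13.3 CPM (11.3 to 15.53), the closest pair of libraries in the family, and 99.1% of 3538 genes of like level had libraries farther apart. Per kb of exon, Slc30a5 exceeded Slc30a6 3.37-fold and 2.24-fold in replicates 1 and 2, but 2.09-fold and 1.39-fold with exon lengths of the full annotation, a setting chosen for this ratio after seeing the data. For Slc30a7, 19.7% of the exon bases overlap Gm43106 and Gm6649 on the opposite strand, and 80.3% of the 25-base words in its transcripts were its own.

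Slc30a8 transcripts were present in these embryonic cells. Slc30a8 was at 29.4 CPM in replicate 1 (26.5 to 32.6) and 35.4 CPM in replicate 2 (32.1 to 38.9), a mean of 32.4 ± 4.21 CPM (SD, n = 2) from 366 and 428 reads. Replicate 2 was slightly the higher, and the intervals overlap. By level per kb of exon it stood at rank 4322 of the genes with a read in replicate 1 and 3714 in replicate 2, within the top 32.5% and 26.4%. The hormone transcripts were far above it: per kb, the insulin genes Ins1 and Ins2 together were 789-fold and 925-fold higher in replicates 1 and 2, proglucagon (Gcg) was 866-fold and 1232-fold higher, and the granin gene Chgb was 132-fold and 118-fold higher. Pooled libraries do not show whether Slc30a8 and insulin transcripts lay in the same cells.

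The other vesicle transporters differed widely. Slc30a4, which encodes ZnT4 of lysosomes and secretory vesicles, known from the lethal milk mouse, was at 50.6 CPM in replicate 1 (46.8 to 54.8) and 15.95 CPM in replicate 2 (13.8 to 18.4), with a mean of 33.3 ± 24.5 CPM (SD, n = 2). Replicate 1 was far the higher, so the mean describes neither library. Per kb, Slc30a8 was above Slc30a4 by 1.62-fold in replicate 1 and by 6.17-fold in replicate 2. By reads without length the ratios were 0.581 and 2.22, so the direction in replicate 1 rested on the exon lengths. Of the summed level per kb of the 4 vesicle genes Slc30a2, Slc30a3, Slc30a4 and Slc30a8, Slc30a8 made up 61.8% in replicate 1 and 84.3% in replicate 2. These shares also rest on the exon lengths.

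Slc30a2, which encodes ZnT2 of mammary and acinar secretory vesicles, had no read in either library. Of the 13 acinar markers 9 were detected in both libraries, with Ctrb1 at 1321 and 986 CPM and Pnlip without a read. The limit that such a count of 0 sets is 0.241 CPM for replicate 1 and 0.248 CPM for replicate 2. Slc30a3, which encodes the synaptic vesicle transporter ZnT3, had no read in replicate 1. In replicate 2 it had 12 reads, or 0.992 CPM (0.513 to 1.73). That value was 4.11-fold the limit of 3 counts in replicate 1, a fold that leaves out the counting error of the 12 reads. Slc30a10 had no read in replicate 1 and 1 read in replicate 2, which is 0.083 CPM (0.0021 to 0.461). Per kb, the value of Slc30a8 was 221-fold the limit of 3 counts for Slc30a2 in replicate 1 and 258-fold that limit in replicate 2. These folds leave out the counting error of Slc30a8 and any variation beyond counting error. Expression of Slc30a2 was not detectable at this depth, and that of Slc30a3 and Slc30a10 rested on the 12 reads and the 1 read of replicate 2.

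Levels of different genes were compared per kb of exon, with exon lengths from the basic transcript set of GENCODE M21. Slc30a9 was at 28.2 ± 1.15 CPM per kb, Slc30a5 at 17.3 ± 5.01, Slc30a8 at 16.4 ± 2.14, Slc30a1 at 15.54 ± 5.73 and Slc30a7 at 11.7 ± 2.87 CPM per kb (SD, n = 2 each). Slc30a6 was at 6.18 ± 0.038 and Slc30a4 at 6.07 ± 4.47 CPM per kb. The values of Slc30a9 lay above those of every other member in both libraries. Those of Slc30a5, Slc30a8 and Slc30a1 overlapped, as did those of Slc30a1 and Slc30a7 and those of Slc30a6 and Slc30a4. The ranges alone therefore do not separate these neighbours. Within each library Slc30a5 was above Slc30a1 and Slc30a1 above Slc30a7, while Slc30a8 was below Slc30a5 and Slc30a1 in replicate 1 and above both in replicate 2, and Slc30a4 was above Slc30a6 in replicate 1 and below it in replicate 2. With the full annotation Slc30a5 was below Slc30a1 and Slc30a7 in both libraries. With 2 libraries the smallest p of an exact permutation test is 0.5, so no test of an order was made.

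Grouped by the site of their products, the 3 early secretory genes held 35.9% of the family's summed level per kb in replicate 1 and 32.9% in replicate 2. Slc30a9 held 25.6% and 30.5%, the 4 vesicle genes 21.3% and 23.7%, and Slc30a1 17.2% and 12.8%. Slc30a8 alone held 13.1% in replicate 1 and 20.0% in replicate 2. This make-up depended on the gene models: with the full annotation the exon length of Slc30a9 went from 5711 to 12374 bases and that of Slc30a5 from 3179 to 7294, while that of Slc30a8 stayed at 1971. The mean share of Slc30a9 then fell from 28.1% ± 3.51 to 18.2% ± 2.49, that of Slc30a8 went from 16.6% ± 4.84 to 23.3% ± 7.07 (SD, n = 2), and Slc30a9 no longer led the family in either library. Which exons the cells used cannot be read from counts per gene.

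**Figure D2:**
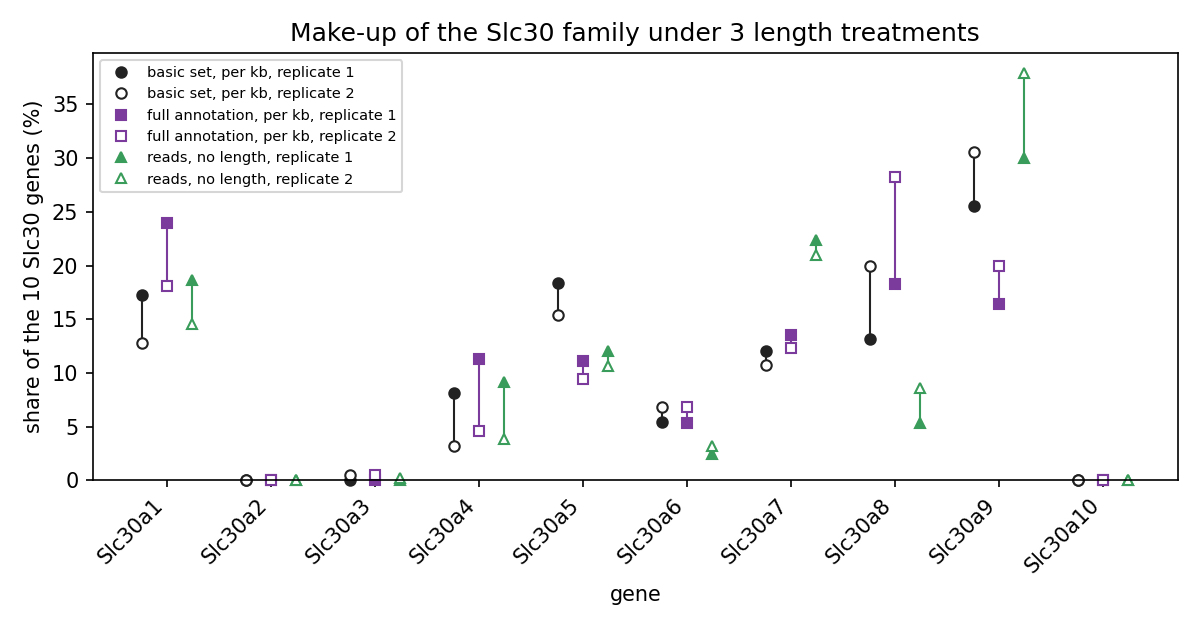
Share of each Slc30 gene in the summed level of the 10 genes, in percent, for replicate 1 (filled) and replicate 2 (open) joined by a line, with levels per kb of the basic transcript set, per kb of the full annotation, or as reads without length. Slc30a9 leads with 25.6% and 30.5% by the basic set, but is below Slc30a8 by the full annotation.

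The libraries were compared gene by gene with a two-sided exact binomial test, adjusted by Benjamini-Hochberg over the 13416 genes whose reads in both libraries summed to 10 or more. The test asks whether these 2 libraries differ beyond counting error and compares no conditions. Of the 10 members 8 had enough reads, Slc30a3 only through its 12 reads in replicate 2, and 6 of the 8 differed, 4 toward replicate 1 and 2 toward replicate 2. Among all genes tested 85.8% differed, 41.7% toward replicate 1 and 44.1% toward replicate 2, so this count does not set the members apart. The median log2 ratio of replicate 2 over replicate 1 was -0.29 for the 8 members, Slc30a3 included, and 0.04 for all genes tested.

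Slc30a4 differed most among the 7 detected members, with a log2 ratio of -1.66 and an adjusted p of 1.64e-51 by the exact binomial test. It was 3.15-fold higher in replicate 1, and 22.9% of 4380 genes of like level had libraries farther apart. Slc30a1, Slc30a5 and Slc30a7 were also higher in replicate 1, with log2 ratios of -0.77, -0.60 and -0.51 and exact binomial adjusted p of 4.83e-31, 1.17e-13 and 2.1e-18. Among genes of like level 38.2%, 56.3% and 51.9% had libraries farther apart. Slc30a8 was 1.20-fold higher in replicate 2 (log2 ratio 0.26, exact binomial adjusted p = 0.012), and 83.1% of 4367 genes of like level had libraries farther apart. Slc30a6 and Slc30a9 were not called, with log2 ratios of -0.01 and -0.08 and adjusted p of 0.963 and 0.083 by the exact test, although Slc30a9 passed with DESeq2 size factors at an adjusted p of 0.042. With a 2-fold difference also required, 2 of the 8 were left, Slc30a4 and Slc30a3, against 47.8% of all genes tested. Slc30a3 passed the filter on reads only through its 12 reads in replicate 2, so its call and its fold follow in part from that filter.

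**Figure D3:**
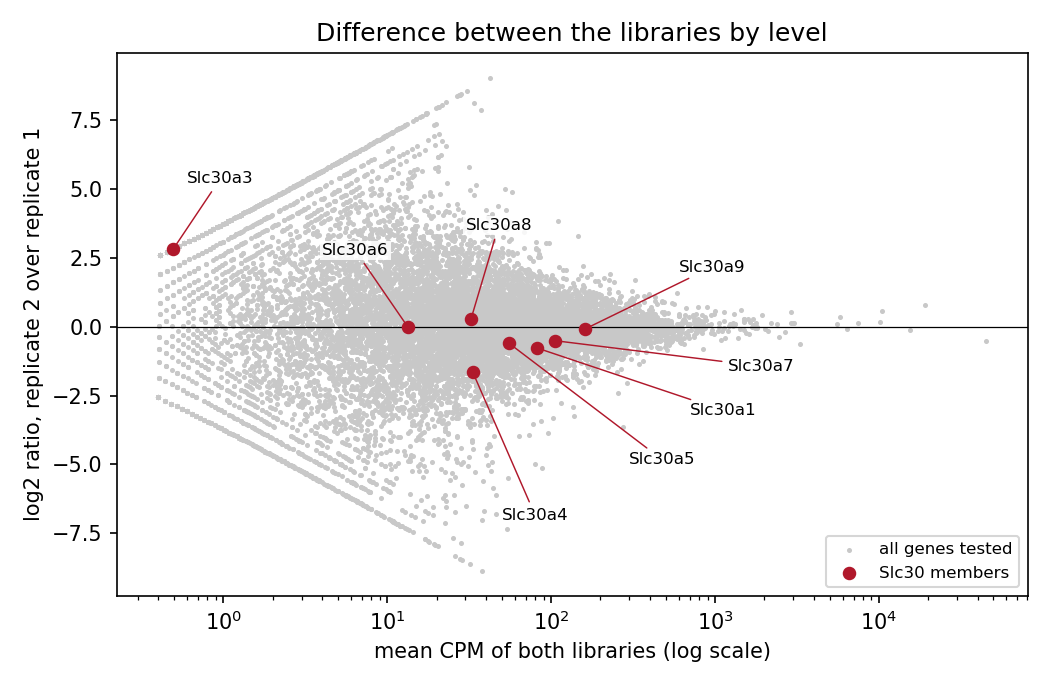
Log2 ratio of replicate 2 over replicate 1 against the mean CPM on a log axis, with all genes tested in grey and the 8 Slc30 members with at least 10 reads in red. Slc30a4 lies at -1.66, and Slc30a6, Slc30a8 and Slc30a9 lie close to 0.

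Other transcripts also differed between the libraries, in both directions. By the exact test the 9 mesenchymal markers were all higher in replicate 1, as were Slc30a1, Slc30a4, Slc30a5 and Slc30a7. So were both tested immune markers, 8 of 11 tested acinar, 4 of 5 tested neural crest and neuronal and 4 of 6 tested ductal markers. Toward replicate 2, 3 acinar markers and 1 ductal marker were called. Of the 12 endocrine markers 4 (Neurog3, Neurod1, Insm1 and Nkx2-2) were called toward replicate 1 and 7 toward replicate 2. The 2 tested endothelial markers went 1 each way, and of 2 tested erythroid markers 1 was called, toward replicate 2. Among all genes tested 41.7% were called toward replicate 1 and 44.1% toward replicate 2. Of 15 granule and hormone genes 14 had more reads in replicate 2, as did Slc30a8, and the list's median log2 ratio was 0.52. The part of these cell type and granule transcripts in the differences between libraries was not tested.

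Of the 14 Slc39 importer genes, whose products carry zinc in the opposite direction, 10 were detected in both libraries, beside 45.7% of all symbols. Their summed level per kb was 147 CPM per kb in replicate 1 and 169 in replicate 2, against 114 and 89.8 for the Slc30 genes, which gives ratios of 1.29 and 1.89. The direction in replicate 1 was not stable: the ratio there was 0.975 by reads without length, and 0.883 per kb without Slc39a7, whose count is uncertain, against 1.54 and 1.52 in replicate 2 (settings chosen after seeing the data). Slc39a7, which encodes ZIP7 that releases zinc from the endoplasmic reticulum, had the highest mean at 39.5 ± 9.69 CPM per kb (SD, n = 2). Per kb it exceeded its early secretory counterpart Slc30a7 3.39-fold and 3.397-fold in replicates 1 and 2. By reads without length the ratios were 0.888 and 0.890, so the direction rested on the exon lengths. However, 84.5% of the exon bases of Slc39a7 overlap the annotated gene Gm20427 on the same strand. If the authors' annotation held that gene, the count of Slc39a7 depends on how shared reads were treated.

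Slc39a6 and Slc39a10, whose products can pair at the plasma membrane, were at 31.3 ± 4.73 and 23.3 ± 9.62 CPM per kb (SD, n = 2). Slc39a9, which encodes a Golgi transporter, and Slc39a1, which encodes a surface importer, were at 11.98 ± 1.87 and 10.8 ± 1.63 CPM per kb. The range of Slc39a7, 32.7 to 46.4, overlapped that of Slc39a6, 28.0 to 34.7, and that of Slc39a10, 16.5 to 30.1, overlapped that of Slc39a6. No read was counted for Slc39a4, the importer of intestinal zinc uptake, and Slc39a5 and Slc39a12 stayed under 0.5 CPM.

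All 11 tested Slc39 genes differed between the libraries by the exact test, 4 toward replicate 1 and 7 toward replicate 2, and their median log2 ratio was 0.31. With 85.8% of all genes tested differing, 41.7% toward replicate 1 and 44.1% toward replicate 2, this count is near the background. Slc39a8, whose product carries zinc and manganese, had 515 reads or 41.4 CPM in replicate 1 and 12 reads or 0.992 CPM in replicate 2, with a log2 ratio of -5.17 and an adjusted p of 5.99e-131 by the exact binomial test. Slc39a3, which encodes another surface importer, was at 18.5 and 4.46 CPM, with a log2 ratio of -2.01. Both genes were higher in replicate 1, as were Slc39a7 and Slc39a9. Of the 11 tested Slc39 genes 6 were called with a difference over 2-fold, beside 47.8% of all genes tested.

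**Figure D4:**
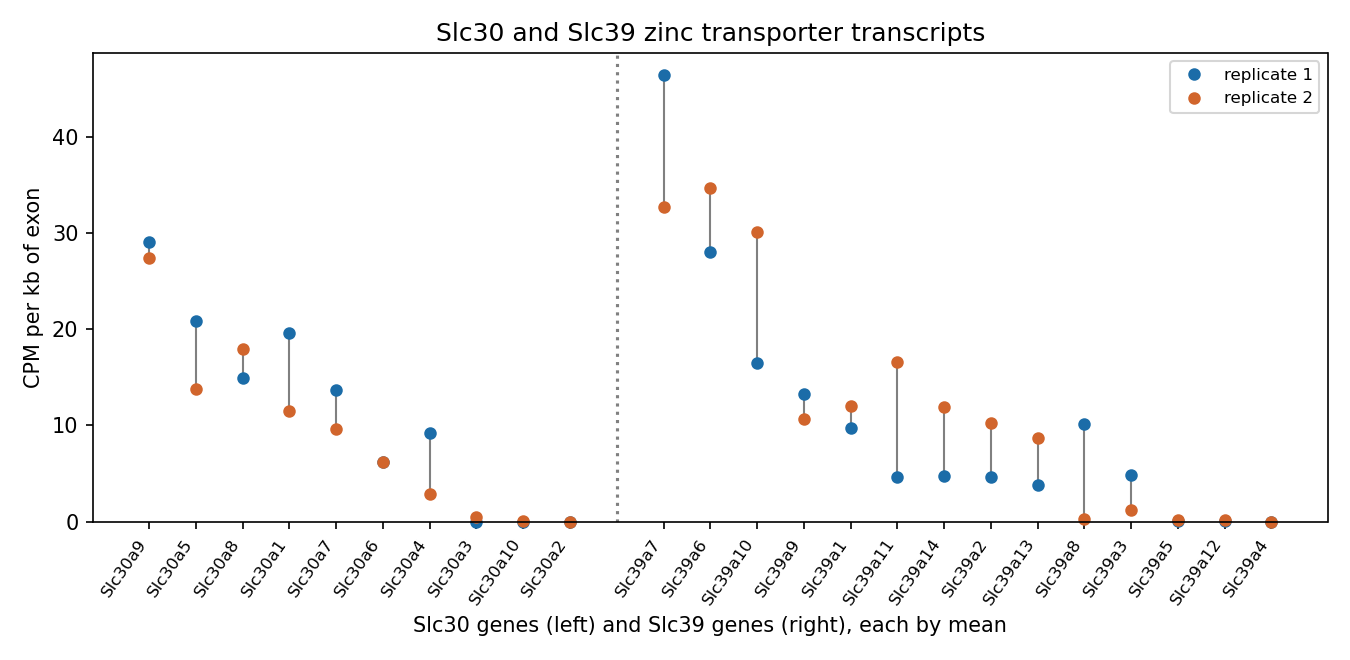
Level per kb of exon of the 10 Slc30 genes and the 14 Slc39 genes in replicate 1 and replicate 2, each family ordered by its mean, with a line joining the libraries. By the mean Slc39a7 is the highest, at 46.4 and 32.7 CPM per kb, although Slc39a6 at 34.7 is above it in replicate 2, and Slc30a9 leads its family at 29.0 and 27.4.

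Transcripts of zinc buffering and sensing accompanied those of the exporters. Mtf1, which encodes the zinc-sensing factor, was at 116 and 92.2 CPM in replicates 1 and 2. The metallothionein genes Mt2 and Mt1, whose products bind zinc in the cytosol, were at 65.0 and 47.5 CPM and at 34.6 and 16.9 CPM. The exact binomial test placed these 3 higher in replicate 1, at adjusted p of 9.27e-09, 1.63e-08 and 8.80e-18. Mt3, the brain metallothionein, was at 0.161 and 3.06 CPM and was called the other way, with an adjusted p of 1.77e-09 by the same exact test. The 3 of 4 tested genes toward replicate 1 stand beside 41.7% of all genes tested. Mt4, the metallothionein of stratified epithelium, had no read. Per kb of exon, Mt2 at 95.6 ± 20.9 CPM per kb (SD, n = 2) stood above every Slc30 gene in both libraries.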

How the data were processed

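Raw counts of reads per gene symbol were deposited by the authors, 1 file per sample. Per the submitters' processing notes the build was mm9 and the tools were TopHat2 2.0.4, Cufflinks 2.0.2, FastQC, cutadapt and DESeq, with no roles stated; how reads were counted, with which annotation and strand setting, and how shared reads were treated is not given in the sources used here. Counts were scaled to CPM with TMM factors of edgeR 4.0.16 in R 4.3.3, 0.9956 and 1.0044. A gene was called detected at 1 CPM in both libraries. Log2 ratios used a prior count of 2, and the exact binomial test was called at an adjusted p under 0.05. On simulated Poisson counts for 13416 genes it found 86 of the 100 genes made 2-fold higher, 98 of the 100 made 4-fold higher, and 10 false calls among 13216 others. The simulated counts held no variation beyond counting error, so they do not describe the real libraries, where 85.8% of genes tested were called. Intervals and limits do not cover more than counting error, because PCR reads that lack molecular identifiers may be copies of 1 molecule.

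Exon lengths, overlaps and 25-base words came from GENCODE M21 (98.0% of symbols matched), and promoters from RefSeq, both on GRCm38. Alternatives were plain totals, DESeq2 1.42.0 size factors, detection limits of 0.5 and 5 CPM, no count filter, a 2-fold limit, a prior count of 0.5, other gene models and each library alone.

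The members and gene lists were chosen with earlier results of these data known. All 10 members were named; of Slc39, the 5 highest per kb, those under 1 CPM in both libraries and those called with over 4-fold; all 5 buffering and sensing genes; Ins1, Ins2, Gcg and Chgb of 15 granule genes; of 15 zinc enzymes and partners, Tmem163, Alpl and the 3 highest per kb; and of each marker list the highest member and those at 0, not all of which are reported here. Neurog3 and the genes overlapping Slc30a1, Slc30a7 and Slc39a7 were named outside this rule, after results had been seen. No counts of the genes overlapping Slc30a7 and Slc39a7 are reported here. Hbb-bt was not matched.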

Additional observations from a re-analysis of the deposited data

How the results depend on the processing

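The number of detected Slc30, Slc39 and zinc buffering genes stayed within 1.5 times its value under the other scalings, detection limits and single libraries. The number of Slc30 members differing between the libraries was 6 under plain totals and without a count filter, 7 with DESeq2 size factors, and 2 with a 2-fold difference also required. The mean share of Slc30a8 in the family was 6.95% by reads without length and 23.3% with the full annotation, against 16.6%, and ran from 13.1% to 20.0% when each library was left out in turn. Of 24 log2 ratios of members under alternatives 22 kept their direction and their side of the threshold; that of Slc30a6 turned from -0.01 to 0.00029 with plain totals, and Slc30a9 passed the threshold with DESeq2 size factors. No paired analysis was possible because there is 1 group. Few reads limit what can be said of Slc30a2, Slc30a3 and Slc30a10, whose counts were 12 reads or fewer. Depth is not the only limit, since a level near 0 in 1 library need not hold in the other. Ankle1, for example, had a mean of 37.9 CPM and a log2 ratio of -8.86.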

Other observations

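Genes that work beside the zinc exporters in the secretory pathway were detected in 12 of 15 cases, beside 45.7% of all symbols. Tmem163, whose product exports zinc outside the Slc30 family and can pair with ZnT proteins, was at 116 and 74.4 CPM in replicates 1 and 2, and per kb at 22.8 ± 7.08 CPM per kb (SD, n = 2). Its log2 ratio was -0.64, with an adjusted p of 5.28e-26 by the exact binomial test. Ece1, a zinc metallopeptidase that activates endothelin, was the highest of the list at 355 ± 46.0 CPM per kb. Ap3d1 and Ap3b1, subunits of the AP-3 coat that sorts membrane proteins to vesicles, followed at 46.2 ± 7.10 and 43.3 ± 7.59 CPM per kb.

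Alpl, the tissue-nonspecific alkaline phosphatase that receives zinc through ZnT5, ZnT6 and ZnT7, was near the limit of detection. It had 10 reads in replicate 1 and 6 in replicate 2. The other alkaline phosphatase genes on the list, Alpi and Alppl2, had no read. The exporters Slc30a5, Slc30a6 and Slc30a7 were thus measured in cells with almost no Alpl transcript. Of 13 tested genes of the list 11 differed between the libraries by the exact test, 6 higher in replicate 1 and 5 higher in replicate 2, against 85.8% of all genes tested.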
